A study of Mus musculus with 4 samples.

Results

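The genes examined here encode the MLL/SET1 complexes, the machinery that methylates lysine 4 of histone H3 (H3K4). They were taken as a named list of 10 genes, *Mll1*, *Mll2*, *Mll3*, *Setd1a*, *Setd1b*, *Wdr5*, *Ash2l*, *Rbbp5*, *Dpy30* and *Men1*, out of 37310 genes in the deposited count table, and all 10 were found in it. RNA was sequenced from mouse embryonic stem cells (mESCs) in 2 groups of 2 libraries. The wild-type (WT) group is the HATX line, which carries a doxycycline-inducible *Xist* transgene, and the other group is a *Spen* knockout (KO) of that line, of which clone 2 was sequenced. Both were grown in serum with LIF on gelatin, the study describes the cells as haploid, and the labels give a mixed genomic background and no treatment. Each group is 1 cell line, so loss of *Spen* and any other difference between the clone and its parent cannot be told apart, and nothing in the labels says that replicates are separate cultures, so that p-values measure only the spread between these libraries.

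Methylated H3K4 is the mark of active regulatory DNA. Trimethylation covers the start sites of active genes and monomethylation covers enhancers. The enzymes act in large complexes that share a core of Wdr5, Rbbp5, Ash2l and Dpy30, without which the catalytic subunit has little activity, and each catalytic subunit adds its own partners. Setd1a and Setd1b account for most trimethylation at start sites, Mll1 and its close relative Kmt2b act with menin (the product of *Men1*) at a subset of promoters, and Mll3 and Kmt2d methylate enhancers. Spen is a large RNA-binding protein whose SPOC domain binds histone deacetylase co-repressors, and that domain has also been described as a binding site for Kmt2d complexes. The symbols are those of the annotation used by the authors. In it *Mll1* is the gene now called *Kmt2a*, *Mll3* is *Kmt2c*, and *Mll2* is the gene on chromosome 15 now called *Kmt2d*. The gene on chromosome 7 now called *Kmt2b* appears as *Wbp7*. It was not on the list of 10 and is described with the partner genes.

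Several of these complexes are guided by DNA that is rich in unmethylated CG dinucleotides, through the CXXC domains of Mll1, Kmt2b and Cxxc1, and the promoters of several of their own genes are rich in CG. Promoter windows of 3 genes are shown for this reason, one for a catalytic gene that rose (*Mll1*), one for the catalytic gene that did not pass the test (*Mll2*) and one for a SET1 gene that rose (*Setd1a*). Each runs 5′ to 3′ on the gene's strand from 250 bases before to 50 bases after the RefSeq start of the gene on build GRCm38.p6, with every CG in capitals. The windows are chr9:44881240-44881539 on the minus strand, chr15:98871156-98871455 on the minus strand and chr7:127777139-127777438 on the plus strand.
Mll1 (Kmt2a): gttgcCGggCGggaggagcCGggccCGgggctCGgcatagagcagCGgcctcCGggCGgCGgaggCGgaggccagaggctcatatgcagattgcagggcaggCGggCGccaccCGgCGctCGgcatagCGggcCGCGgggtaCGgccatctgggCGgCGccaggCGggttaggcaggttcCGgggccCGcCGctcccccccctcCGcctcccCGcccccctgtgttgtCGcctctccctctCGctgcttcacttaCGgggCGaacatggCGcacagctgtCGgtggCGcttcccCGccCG
Mll2 (Kmt2d): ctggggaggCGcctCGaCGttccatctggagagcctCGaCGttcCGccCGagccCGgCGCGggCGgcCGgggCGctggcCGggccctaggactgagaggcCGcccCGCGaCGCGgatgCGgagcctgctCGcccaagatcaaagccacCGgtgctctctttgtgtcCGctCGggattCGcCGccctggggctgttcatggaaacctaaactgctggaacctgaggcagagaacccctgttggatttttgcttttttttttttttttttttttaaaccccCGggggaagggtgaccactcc
Setd1a: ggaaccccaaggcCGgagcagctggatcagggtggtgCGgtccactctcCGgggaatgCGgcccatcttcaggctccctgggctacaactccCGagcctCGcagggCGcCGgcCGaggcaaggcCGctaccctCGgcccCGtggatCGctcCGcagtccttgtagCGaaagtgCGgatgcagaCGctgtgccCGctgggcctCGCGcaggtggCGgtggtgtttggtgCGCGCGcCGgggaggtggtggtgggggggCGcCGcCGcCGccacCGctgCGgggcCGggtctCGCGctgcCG
The windows held 36, 27 and 35 CG dinucleotides, against a median of 7 over 32851 such windows of the RefSeq table. Of all windows, 15.5% held at least 27. These windows were not limited to genes expressed here, so no share at the level of the complex genes is given. The window of *Mll2*, which did not pass the test, thus had fewer than those of *Mll1* and *Setd1a*, and more than those of some other genes that rose. Windows were found for 8 of the 10 genes. *Mll3* had 56 CG dinucleotides, *Wdr5* 22 and *Rbbp5* 16, the 3 windows of *Men1* held 11 to 16, and the 4 windows of *Dpy30* held 1 to 39. The GC box, searched as GGGCGG and as CCGCCC for the other strand, was present in 35.7% of all windows. It occurred 3 times in forward and 2 times in reverse orientation in the *Mll1* window, once and 3 times in that of *Mll2*, and 0 times in that of *Setd1a*.

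Total counts were 36667685 to 61908422 per library, with more in each KO-labelled library than in either WT library, and 21850 to 22591 genes had at least 1 count. The targeted gene was higher, not lower, under its KO label. *Spen* had normalized counts of 3716 and 3047 under the WT label and of 7797 and 6242 under the KO label, a log2 fold change of 1.05 ± 0.21 (SE; DESeq2 adjusted p = 7.7e-06). Counts over the whole gene do not show which exons were read or whether protein was made, so they neither bear out nor contradict the loss of Spen, which the study describes as a deletion of most or all of the gene. The labels were taken as given, and the second group is called KO-labelled throughout. Pluripotency markers of mESCs were high in all 4 libraries. The 10 on the list ranged from a mean normalized count of 3822 for *Zfp42* to 54542 for *Dppa5a*, and summed to 247489 to 251954 in WT and 253559 to 265335 in the KO-labelled libraries. Of 7 fibroblast and feeder markers 1, *Thy1*, exceeded a mean of 50, and their sum was 172 to 192 in WT and 421 to 485 in the KO-labelled libraries. Summed markers were lower in the KO-labelled libraries for primitive endoderm (530 to 566 against 246 to 285), neural cells (1271 to 1378 against 793 to 817) and trophoblast (698 to 733 against 345 to 346), and overlapped for the 2-cell-like state. The largest part of the fibroblast and feeder sum was *Thy1* (mean 256), that of the neural sum *Nes* (mean 793) and that of the trophoblast sum *Eomes* (mean 488). Called lower were 2 of 6 primitive endoderm, 1 of 3 neural and 2 of 3 trophoblast genes, and 0 of these were called higher. Of the 10 pluripotency markers 2 were called higher and 1 lower, and of the 7 fibroblast and feeder markers 1 was higher and 0 lower. Over all genes tested 16.4% were called higher and 15.8% lower. No marker was at 0 in all libraries. Their part in the results below was not tested.

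Of the 10 complex genes, 7 were higher under the KO label, 0 were lower and 3 did not pass the test (DESeq2, adjusted p under 0.05 over all genes). The edgeR quasi-likelihood test also gave 7 and 0, and 0 genes were lower at an unadjusted DESeq2 p under 0.05. Over all 17710 genes tested, 16.4% were called higher and 15.8% lower. All 10 genes are well expressed, with mean normalized counts of 1000 or more, and among the 6988 genes at that level 29.8% were called higher and 19.2% lower. The median log2 fold change of the 10 genes was 0.38, against 0.00 over all genes tested and 0.07 over those with a mean of at least 1000. All changes were less than 2-fold. With the thresholds of the study, a fold of 2 or more at an adjusted p under 0.001, 0 of the 10 were called by DESeq2 and 0 by edgeR, against 1.36% of all genes higher and 3.15% lower by DESeq2. For 8 of the 10 both KO-labelled libraries lay above both WT libraries, which held for 35.4% of genes tested and for 47.0% of those with a mean of at least 1000.

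**Figure D1:**
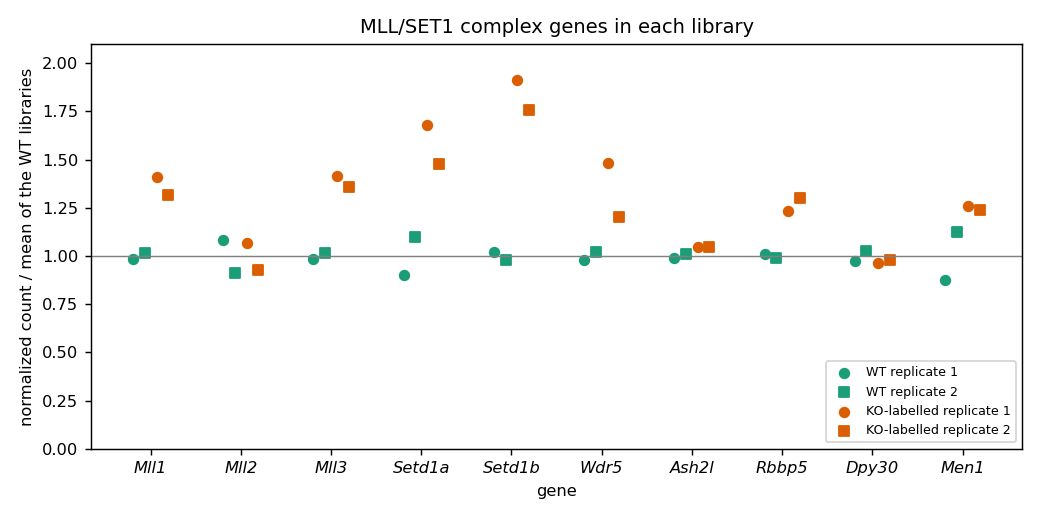
Normalized count of each of the 10 complex genes, divided by that gene's mean in the WT libraries (linear axis from 0), with 1 point for each of the 2 WT and 2 KO-labelled libraries and a line at 1. The KO-labelled points lie above the WT points for every gene except *Mll2* and *Dpy30*.

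Of the 5 genes for catalytic subunits on the list, 4 rose, at a median log2 fold change of 0.47 over the 5. At a mean normalized count of 1000 or more, which all 5 reach, 29.8% of all genes were called higher. *Setd1b* (ENSMUSG00000038384.10; mm9 chr5:123592202-123617444, plus strand), which encodes a catalytic subunit of the SET1 complexes, had 1131 and 1081 normalized counts in WT, against 2118 and 1942 in the KO-labelled libraries. The groups were far apart and the replicates of each close together, at means of 1106 ± 35.0 and 2030 ± 124 (SD, n = 2). With a log2 fold change of 0.88 ± 0.11 (SE), or 1.84-fold, it changed the most of the 10 (DESeq2 adjusted p = 1.51e-14). *Setd1a* (ENSMUSG00000042308.8; mm9 chr7:134920184-134943636, plus strand) encodes the alternative catalytic subunit of the same complexes. Its normalized counts were 1001 and 1216 in WT, against 1862 and 1637 in the KO-labelled libraries. The lowest KO-labelled value was above the highest WT value, and the log2 fold change was 0.66 ± 0.13, or 1.58-fold (DESeq2 adjusted p = 1.99e-06). Its count is less certain than the others, because 51.8% of its exonic bases (3523 bases) lie within *Hsd3b7* on the same strand. *Hsd3b7*, an enzyme of bile acid synthesis, had a mean of 331 normalized counts itself and a log2 fold change of 0.06 (DESeq2 adjusted p = 0.861).

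*Mll3* (ENSMUSG00000038056.8; mm9 chr5:24777612-25004601, minus strand), an enhancer methyltransferase, had 5220 and 5398 normalized counts in WT, against 7521 and 7223 in the KO-labelled libraries. The gap between groups was many times the spread within them, at 5309 ± 126 against 7372 ± 211 (SD, n = 2). This was a log2 fold change of 0.47 ± 0.07, or 1.39-fold (DESeq2 adjusted p = 3.01e-09). *Mll1* (ENSMUSG00000002028.6; mm9 chr9:44611438-44689379, minus strand), the founding member of the family and known from leukaemic fusions, had 2902 and 2986 normalized counts in WT, against 4154 and 3869 in the KO-labelled libraries. It was higher in both KO-labelled libraries by a log2 fold change of 0.45 ± 0.09, or 1.36-fold (DESeq2 adjusted p = 1.84e-06).

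*Mll2* (ENSMUSG00000048154.7; mm9 chr15:98662100-98701614, minus strand), the enhancer enzyme Kmt2d, was the exception among the catalytic genes. Its normalized counts were 2779 and 2340 in WT, against 2734 and 2374 in the KO-labelled libraries. The groups overlapped, with replicate 1 above replicate 2 in each, and averaged 2560 ± 310 and 2554 ± 254 (SD, n = 2). Its log2 fold change was 0.00 ± 0.11, with a 95% interval of -0.22 to 0.21 (DESeq2 adjusted p = 0.992). That interval lies below the estimates for the other 4 catalytic genes on the list, although the difference between genes was not itself tested.

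The 4 subunits of the shared core were split, with 2 higher and 2 that did not pass the test, at a median log2 fold change of 0.20. At a mean normalized count of 1000 or more 29.8% of all genes were called higher, and 4 genes are too few to be told apart from that share. *Rbbp5* (ENSMUSG00000026439.8; mm9 chr1:134373944-134402242, plus strand), which with Ash2l stimulates the catalytic subunit, had 5893 and 5786 normalized counts in WT, against 7196 and 7589 in the KO-labelled libraries. Replicates were close and the groups separate, with a log2 fold change of 0.34 ± 0.07, or 1.27-fold (DESeq2 adjusted p = 3.48e-05). Sequence elsewhere in the genome matches 52.3% of its exonic bases (1901 bases) at 95% identity or more. The pseudogene *Gm11977*, taken as a copy, has 1461 annotated exonic bases, too few to hold all of the match. It had 9.28 and 9.80 normalized counts in WT, against 20.9 and 14.1 in the KO-labelled libraries, far below *Rbbp5*. How reads with more than 1 match were counted is not given in the sources used here. If they were dropped, both genes lack them, so the *Rbbp5* value is uncertain to that extent.

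*Wdr5* (ENSMUSG00000026917.9; mm9 chr2:27370677-27392055, plus strand), the scaffold that docks the catalytic subunit, had 5525 and 5738 normalized counts in WT, against 8358 and 6757 in the KO-labelled libraries. Both KO-labelled libraries were above WT, but they lay further from each other than for any other gene of the 10, at 7558 ± 1132 (SD, n = 2). Its log2 fold change was 0.42 ± 0.10, or 1.34-fold (DESeq2 adjusted p = 8.6e-05). Without KO-labelled replicate 1 the log2 fold change was 0.27 (DESeq2 adjusted p = 0.0525) and without KO-labelled replicate 2 it was 0.57 (adjusted p = 3.4e-06). Without WT replicate 1 or 2 it stayed as large, at 0.40 and 0.46, but did not pass the test (adjusted p = 0.298 and 0.238).

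*Ash2l* (ENSMUSG00000031575.10; mm9 chr8:26926663-26958166, minus strand), whose product pairs with Rbbp5, had 13404 and 13707 normalized counts in WT, against 14189 and 14222 in the KO-labelled libraries. The groups did not overlap, yet the difference was small, at a log2 fold change of 0.07 ± 0.07 with a 95% interval of -0.06 to 0.20 (DESeq2 adjusted p = 0.491). *Dpy30* (ENSMUSG00000024067.7; mm9 chr17:74698814-74723284, minus strand), the small subunit that binds Ash2l, had 5541 and 5830 normalized counts in WT, against 5478 and 5569 in the KO-labelled libraries. The groups overlapped, and the log2 fold change was -0.04 ± 0.08 with a 95% interval of -0.19 to 0.11 (DESeq2 adjusted p = 0.740). The intervals of both genes leave out a change as large as the estimates for *Rbbp5* and *Wdr5*.

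*Men1* (ENSMUSG00000024947.10; mm9 chr19:6334979-6340891, plus strand) encodes menin, a tumour suppressor that tethers Mll1 and Kmt2b to chromatin. It had 2233 and 2867 normalized counts in WT, against 3207 and 3162 in the KO-labelled libraries. The KO-labelled libraries were close to each other and above both WT libraries, of which replicate 1 was the lower. The log2 fold change was 0.32 ± 0.11, or 1.25-fold (DESeq2 adjusted p = 0.0161). This call was the weakest of the 7. Without KO-labelled replicate 1 or 2 the log2 fold change stayed as large, at 0.32 and 0.33, but did not pass the test (DESeq2 adjusted p = 0.139 and 0.124). Without WT replicate 1 it was 0.16 (adjusted p = 0.406), and without WT replicate 2 the log2 fold change was 0.52 (DESeq2 adjusted p = 5.11e-04).

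**Figure D2:**
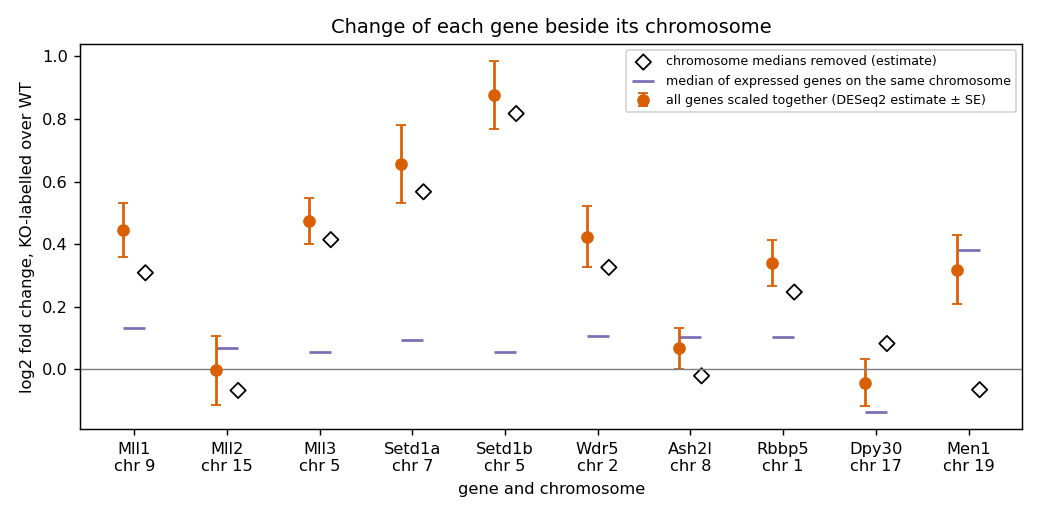
Log2 fold change (KO-labelled over WT, ± SE from DESeq2) of the 10 complex genes (filled points), beside the estimate with chromosome medians removed (open diamonds) and the median of expressed genes on the same chromosome (bars). *Men1* moves from 0.32 to -0.065, and the 6 other called genes of the list stay above 0 by both measures.

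The groups also differed by chromosome, and this bore on *Men1*. Chromosome 19 had a median log2 fold change of 0.38 over its expressed genes (mean normalized count of at least 50), while the other chromosomes that carry complex genes lay between -0.14 (chromosome 17) and 0.13 (chromosome 9). After each gene's chromosome median was removed, *Men1* was at -0.065 (DESeq2 adjusted p = 0.745), and the count of complex genes called higher was 6, against 12.7% of all genes, and 21.6% of those with a mean of at least 1000, called higher on that scale. The values for the others were 0.82 for *Setd1b*, 0.57 for *Setd1a*, 0.41 for *Mll3*, 0.33 for *Wdr5*, 0.31 for *Mll1* and 0.25 for *Rbbp5* (DESeq2 adjusted p from 1.37e-12 to 0.00438). *Mll2* was at -0.07, *Ash2l* at -0.02 and *Dpy30* at 0.08, none of which passed the test. The number of copies of each chromosome was not measured in these data.

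Genes around each complex gene gave a closer view of the same point. Of the 31 expressed genes within 500 kb of *Men1*, 20 were called higher and 1 lower, their median log2 fold change was 0.48, and 18 had a larger value than *Men1*. Its nearest expressed coding neighbours were *Map4k2*, a kinase gene 244 bases away, at 0.69 ± 0.14 (DESeq2 adjusted p = 7.82e-06), and *Cdc42bpg* at 0.07 (adjusted p = 0.684). Few genes around *Setd1b* changed as much as it did. Of 18 expressed neighbours 4 were called higher and 2 lower, the median was 0.06 and 1 exceeded *Setd1b*. The nearest expressed coding gene on 1 side of *Setd1b* was *Rhof*, a small GTPase gene 9501 bases away, at 0.68 ± 0.19 (DESeq2 adjusted p = 0.00223). On the other side *Psmd9*, 60755 bases away, was at -0.22 (DESeq2 adjusted p = 0.0693).

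*Mll3* and *Wdr5* exceeded all of their expressed neighbours, although these numbered only 5 and 7. The medians around them were -0.10 and -0.14. The nearest expressed coding genes to *Mll3* were *Galnt11*, 5876 bases away, at -0.10 (DESeq2 adjusted p = 0.664) and *Xrcc2*, 191029 bases away, at 0.22 (adjusted p = 0.0577). Nearest to *Wdr5*, the chromatin reader gene *Brd3*, 7495 bases away, rose by 0.27 ± 0.07 (DESeq2 adjusted p = 8.28e-04). On its other side the retinoid receptor gene *Rxra*, 139905 bases away, fell by 0.54 ± 0.10 on the log2 scale (DESeq2 adjusted p = 6.42e-07). Around *Rbbp5* the median of 13 genes was -0.20 and 2 exceeded it, with *Dstyk* at -0.20 (adjusted p = 0.144) and *Tmem81* at 0.35 (adjusted p = 0.398). *Mll1* was exceeded by 5 of 25 neighbours and *Setd1a* by 4 of 40, where the medians were 0.06 and 0.19. The neighbour of *Mll1*, *Tmem25*, rose by 1.39 ± 0.40 from 51.7 and 34.8 normalized counts to 118 and 108 (DESeq2 adjusted p = 0.00299), while *Atp5l* was at -0.06 (adjusted p = 0.800). *Orai3*, next to *Setd1a*, was at 0.23 (adjusted p = 0.212).

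Genes around *Mll2* were called higher more often than lower. Of its 26 expressed neighbours 13 were called higher and 2 lower, at a median of 0.26, and 20 had a larger value than *Mll2*. Higher calls also outnumbered lower ones around *Men1*, *Setd1b*, *Setd1a* (13 and 2 of 40) and *Mll1* (9 and 4 of 25). They did not around *Rbbp5* (1 and 5 of 13), *Dpy30* (0 and 2 of 8), *Mll3* (0 and 1 of 5), *Wdr5* or *Ash2l* (1 and 1 each). Over all genes tested 16.4% were called higher and 15.8% lower. *Ash2l* and *Dpy30* lay among 13 and 8 neighbours with medians of 0.05 and -0.09, close to their own values. On their whole chromosomes, 59.1% of expressed genes exceeded *Mll2*, 57.2% exceeded *Men1*, 54.5% exceeded *Ash2l* and 38.6% exceeded *Dpy30*. The shares for the other genes that rose were 22.4% for *Rbbp5*, 17.3% for *Mll1*, 14.2% for *Wdr5*, 9.48% for *Mll3*, 6.77% for *Setd1a* and 3.55% for *Setd1b*.

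**Figure D3:**
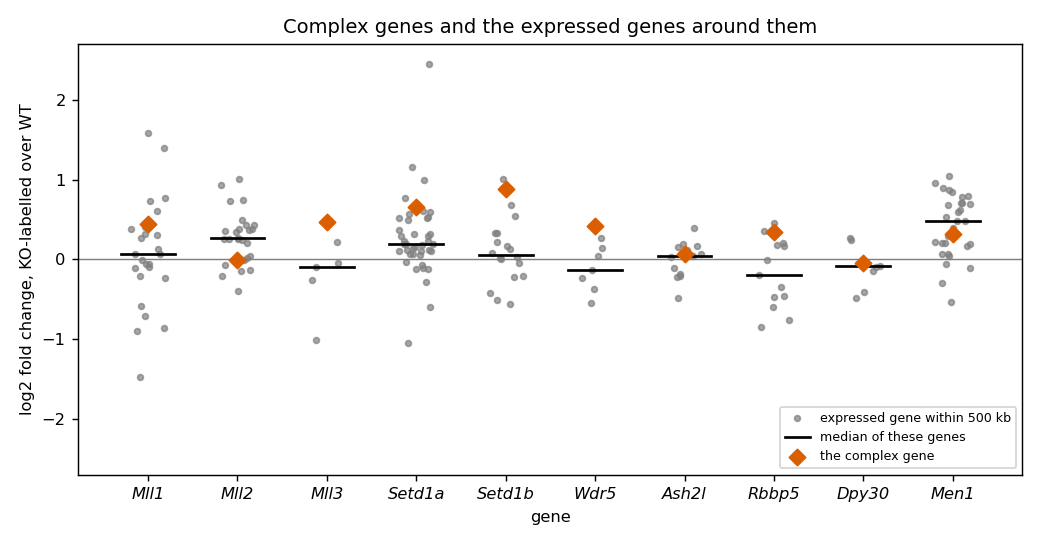
Log2 fold change (KO-labelled over WT) of expressed genes within 500 kb of each complex gene, drawn as grey points spread sideways only for legibility, with a bar at their median and a diamond for the complex gene itself. *Setd1b* has 1 of 18 neighbours above it, and *Men1* has 18 of 31.

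Levels were compared between genes as normalized counts per kb of exon (mean ± SD, n = 2), since the transcripts differ greatly in length. In WT the order ran from the core to the catalytic genes. *Dpy30* was at 5837 ± 210 per kb, *Ash2l* at 2591 ± 41.0, *Rbbp5* at 1608 ± 20.9, *Wdr5* at 1566 ± 41.9 and *Men1* at 737 ± 130. The catalytic genes were all lower, with *Wbp7* at 562 ± 2.73, *Mll3* at 262 ± 6.22, *Mll1* at 177 ± 3.56, *Setd1a* at 163 ± 22.4, *Mll2* at 129 ± 15.7 and *Setd1b* at 102 ± 3.22. Of neighbours in this order, the library values of *Rbbp5* and *Wdr5* overlapped, as did those of *Mll1* and *Setd1a*, so neither pair can be ranked. Where only the 3.272 kb of *Setd1a* exon outside *Hsd3b7* was taken as its length, an upper limit, *Setd1a* came to 339 ± 46.6 per kb and lay above *Mll3*.

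In the KO-labelled libraries *Setd1b* was at 187 ± 11.4 per kb and *Mll2*, at 129 ± 12.8, was the lowest of the catalytic genes. Whether the order of this pair differed between groups depended on the length used. Per kb of the longest transcript *Setd1b* was at 144 in WT and already above *Mll2* at 129. *Setd1a* was at 258 ± 23.5 and *Mll1* at 241 ± 12.1, with overlapping libraries, and *Wdr5* at 2102 ± 315 overlapped *Rbbp5* at 2035 ± 76.6. *Mll3* was at 363 ± 10.4. *Wbp7* at 857 ± 94.8 reached the range of *Men1* in 1 library. *Men1* at 921 ± 9.13, *Ash2l* at 2716 ± 4.41 and *Dpy30* at 5671 ± 66.5 kept their places.

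**Figure D4:**
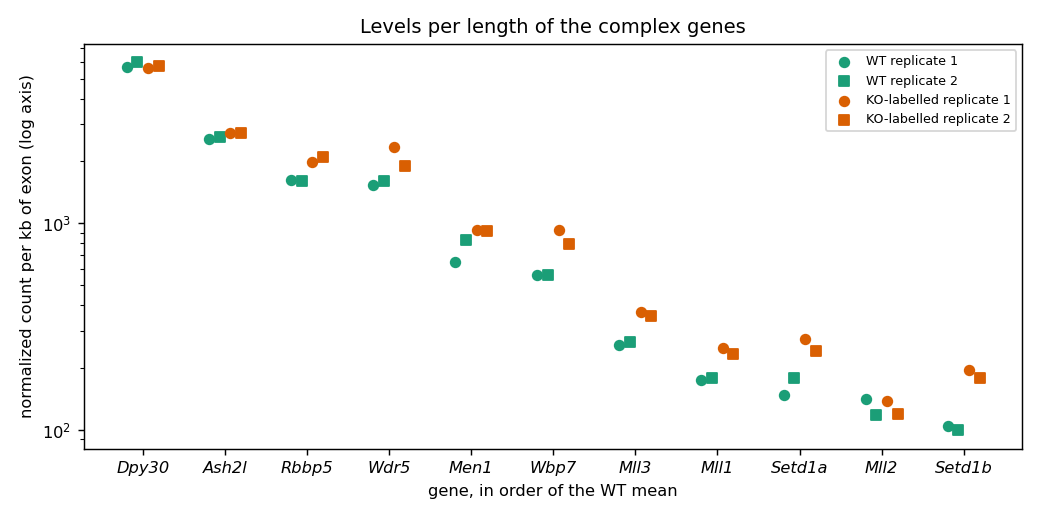
Normalized counts per kb of exon (log axis) of the complex genes and *Wbp7* in each library, ordered by the WT mean. The core genes lie above the catalytic genes in both groups, and *Mll2* is the lowest in the KO-labelled libraries.

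Summed over the 6 catalytic genes including *Wbp7*, the level per kb was 1383 and 1405 in WT, against 2151 and 1917 in the KO-labelled libraries. The 4 core genes summed to 11410 and 11795 in WT and to 12642 and 12405 in the KO-labelled libraries. The ratio of core to catalytic RNA was 8.25 and 8.39 in WT, against 5.88 and 6.47 in the KO-labelled libraries, so the groups did not overlap. *Dpy30* was the largest part of the core sum, at 4.11 and 4.26 times the catalytic sum in WT and 2.61 and 2.98 times in the KO-labelled libraries. *Rbbp5* was at 1.17 and 1.13 times in WT, and below the catalytic sum in KO-labelled replicate 1 (0.921), and *Wdr5* was below it in KO-labelled replicate 2 (0.980). Within the catalytic sum, *Mll2* took 10.1% and 8.41% in WT and 6.42% and 6.25% in the KO-labelled libraries. *Setd1b* took 7.52% and 7.08% in WT and 9.05% and 9.32% in the KO-labelled libraries. *Mll1* took 12.6% and 12.7% in WT, against 11.6% and 12.1% in the KO-labelled libraries. *Mll3* took 18.60% and 18.9% in WT, against 17.2% and 18.56% in the KO-labelled libraries, so its groups were barely apart. *Mll1* and *Mll3* themselves rose, and only their parts of the sum were smaller. All these sums use the full exon length of *Setd1a*, of which 51.8% is shared with *Hsd3b7*. The shares of *Setd1a* overlapped, and *Wbp7* held the largest share throughout, between 40.1% and 43.0%. With 2 libraries in each group an exact permutation test cannot go below a two-sided p of 0.333, so these sums are given as descriptions.

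Further subunits and partners of these complexes, with the more distant relative *Mll5*, were taken as a list of 14, here called partner genes. Of these, 6 were higher, *Mll5* among them, 2 were lower and 6 did not pass the test (DESeq2, adjusted p under 0.05). Of the 14 genes 10 had a mean normalized count of at least 1000, and at that level 29.8% of all genes were called higher and 19.2% lower. The median log2 fold change of the list was 0.26, and with chromosome medians removed 4 were higher and 2 lower, against 21.6% and 16.7% of genes at that level. *Wbp7* (Kmt2b; ENSMUSG00000006307.9), on this list but itself a catalytic subunit closely related to Mll1, had 5371 and 5408 normalized counts in WT, against 8867 and 7580 in the KO-labelled libraries. Both KO-labelled libraries were well above WT, and the log2 fold change was 0.61 ± 0.09 (DESeq2 adjusted p = 4.77e-11), so that 5 of the 6 catalytic genes rose when *Wbp7* is counted, at a median of 0.54. It stands in both counts. Of the partners of Mll1, *Psip1*, whose product links the menin and Mll1 pair to chromatin, went the other way, from 6308 and 7087 normalized counts in WT to 5071 and 4513. It fell by 0.48 ± 0.09 on the log2 scale (DESeq2 adjusted p = 6.87e-07), and by 0.27 with its chromosome median removed (adjusted p = 0.0120). *Tasp1*, the protease that cleaves Mll1, was at -0.05 (adjusted p = 0.828).

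Of the partners of the SET1 enzymes, *Wdr82*, which brings Setd1a to initiating RNA polymerase II, rose by 0.31 ± 0.07 (DESeq2 adjusted p = 2.35e-05), or by 0.18 with its chromosome median removed (adjusted p = 0.0356). *Cxxc1*, the CG-binding subunit, rose by 0.26 ± 0.09 (adjusted p = 0.00977), which was lost with its chromosome median removed (0.14, adjusted p = 0.252). *Bod1* fell by 0.26 ± 0.10 on the log2 scale (DESeq2 adjusted p = 0.0305), or by 0.42 with its chromosome median removed (adjusted p = 2.2e-04), and its relative *Bod1l* was at 0.19 (adjusted p = 0.0723). *Hcfc1*, an X-linked subunit shared by SET1 and Mll1 complexes, had 12087 and 15805 normalized counts in WT, against 22303 and 19668 in the KO-labelled libraries. The groups did not overlap but the spread was wide, at a log2 fold change of 0.59 ± 0.21 (DESeq2 adjusted p = 0.0203), and *Hcfc2* was at 0.01 (adjusted p = 0.969).

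Of the partners of Mll3 and Kmt2d, *Kdm6a*, an X-linked demethylase of the Polycomb mark H3K27me3, rose by 0.26 ± 0.08 (DESeq2 adjusted p = 0.00391). The other members of that group did not pass the test, with *Ncoa6* at 0.07 (adjusted p = 0.759), *Paxip1* at 0.28 (adjusted p = 0.0862) and *2900092E17Rik*, now *Pagr1a*, at 0.26 (adjusted p = 0.0862). The last shares 61.3% of its exonic bases with *Prrt2* on the same strand and is uncertain. *Mll5*, a more distant relative, had 521 and 530 normalized counts in WT, against 746 and 667 in the KO-labelled libraries. It rose by 0.43 ± 0.15 (DESeq2 adjusted p = 0.0178), which narrowly missed the threshold with its chromosome median removed (0.37, adjusted p = 0.0540). Of the partner calls, those of *Wbp7*, *Psip1* and *Wdr82* held when any single library was left out. *Mll5*, *Cxxc1* and *Bod1* did not pass the test without any 1 of the 4 libraries (DESeq2 adjusted p up to 0.296, 0.159 and 0.405), at log2 fold changes of 0.35 to 0.51, 0.24 to 0.30 and -0.32 to -0.18. *Hcfc1* did not pass without either KO-labelled library (0.50 and 0.68), nor *Kdm6a* without KO-labelled replicate 1 or WT replicate 1 (0.23 and 0.21).

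**Figure D5:**
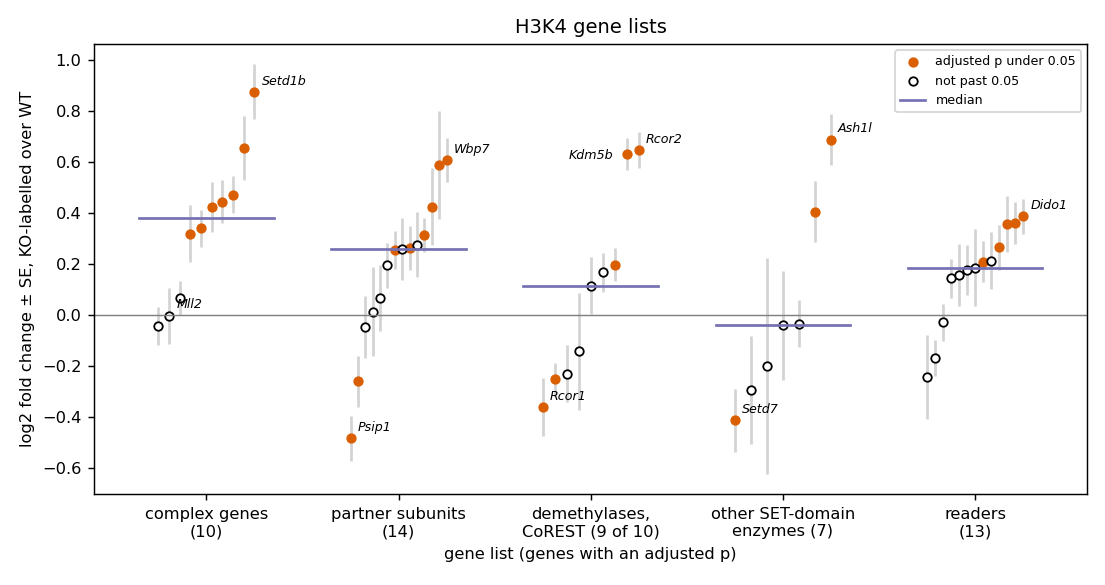
Log2 fold change (KO-labelled over WT, ± SE from DESeq2) of each gene in the complex list and in 4 other H3K4 lists, with filled points for an adjusted p under 0.05 and a bar at each list's median. Medians run from 0.38 for the 10 complex genes to -0.04 for the other SET-domain enzymes.

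Genes that remove H3K4 methylation were compared in the same way. Of 10 demethylase and CoREST genes 9 had an adjusted p, of which 3 were higher and 2 lower, at a median of 0.12. Of these 10 genes 8 had a mean normalized count of at least 1000, and at that level 29.8% of all genes were called higher and 19.2% lower, so that the counts of this list lie near the background. *Kdm5b*, a trimethyl-H3K4 demethylase, had 31834 and 32708 normalized counts in WT, against 49162 and 50955 in the KO-labelled libraries. Both groups were tight and far apart. It rose by 0.63 ± 0.06 (DESeq2 adjusted p = 3.86e-22), and its X-linked relative *Kdm5c* rose by 0.20 ± 0.06 (adjusted p = 0.00986). The Y-linked *Kdm5d* was near 0 in all 4 libraries. *Rcor2*, a CoREST scaffold gene on chromosome 19, rose by 0.65 ± 0.07 (DESeq2 adjusted p = 1.1e-18), and 0.26 of that remained with its chromosome median removed (adjusted p = 0.00137). *Kdm1a*, the mono- and dimethyl demethylase bound by CoREST, fell by 0.25 ± 0.07 and *Rcor1* fell by 0.36 ± 0.11 on the log2 scale (DESeq2 adjusted p = 7.64e-04 and 0.00666). Neither passed the test with chromosome medians removed (-0.04 and -0.05, adjusted p = 0.738 and 0.828). *Kdm5b* and *Rcor2* kept their calls without any single library. *Kdm5c* did not pass the test without any 1 of the 4 (0.18 to 0.23, DESeq2 adjusted p up to 0.187), nor *Rcor1* without any except WT replicate 1 (-0.41 to -0.24, adjusted p up to 0.304), nor *Kdm1a* without KO-labelled replicate 1 or WT replicate 1 (-0.24 and -0.23, adjusted p up to 0.0557).

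Among 7 other SET-domain enzymes described as acting on H3K4, 2 were higher and 1 lower, at a median of -0.04. Of these 7 genes 4 had a mean of at least 1000, where 29.8% of all genes were called higher and 19.2% lower. Over all genes tested the shares were 16.4% and 15.8%, and 7 genes are too few to be told apart from either. *Ash1l*, a trithorax-group enzyme, had 1721 and 1625 normalized counts in WT, against 2853 and 2539 in the KO-labelled libraries. It rose by 0.69 ± 0.10 (DESeq2 adjusted p = 2.13e-10). *Smyd3* rose by 0.41 ± 0.12 (adjusted p = 0.00332) and *Setd7*, a monomethyltransferase, fell by 0.41 ± 0.12 on the log2 scale (adjusted p = 0.00374). Of 13 reader genes, whose products bind methylated H3K4, 5 were higher and 0 lower by DESeq2, with 1 lower at an unadjusted p under 0.05 and 1 lower by edgeR, at a median of 0.19. With 11 of the 13 at a mean of at least 1000, the background for this list is the 29.8% called higher and 19.2% called lower at that level. Those that rose were *Dido1* (0.39 ± 0.07), *Phf23* (0.36 ± 0.08), *Ing4* (0.36 ± 0.11), *Phf8* (0.27 ± 0.09) and *Ing1* (0.21 ± 0.08), with DESeq2 adjusted p from 1.84e-07 to 0.0335. *Ash1l*, *Dido1* and *Phf23* kept their calls without any single library. *Phf8* and *Ing1* did not pass the test without any 1 of the 4 (0.24 to 0.30 and 0.21 to 0.23, DESeq2 adjusted p up to 0.164 and 0.249). *Ing4* did not pass without any except KO-labelled replicate 1 (0.28 to 0.39, adjusted p up to 0.220), nor *Smyd3* without any except WT replicate 1 (0.30 to 0.41, adjusted p up to 0.188), nor *Setd7* without KO-labelled replicate 1 or WT replicate 1 (-0.35 and -0.28, adjusted p up to 0.240). With chromosome medians removed *Ing1* was not called (0.12, adjusted p = 0.296) and *Phf23* was at 0.20 (adjusted p = 0.0418). By the thresholds of the study 0 genes in these 4 lists were called by DESeq2 and 0 by edgeR.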

How the data were processed

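Per the labels and the study's methods, ribosomal RNA-depleted, stranded libraries were read as paired 75-base reads, aligned by the authors to mm9 with STAR and assigned to GENCODE vM1 genes with featureCounts. The deposited table holds these raw counts, without normalization. Versions, the strand setting and the treatment of reads with several matches are not given in the sources used here, and labels and methods name different sequencers. All columns were matched to samples by name.

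WT and KO-labelled libraries (n = 2 each) were compared in R 4.3.3 by the Wald test of DESeq2 1.42.0 (group alone), with Benjamini-Hochberg adjustment over all genes with an adjusted p. Normalized counts are counts divided by DESeq2 size factors, and 95% intervals are Wald intervals. edgeR 4.0.16 was an alternative, and both were tested on simulated data. Of 37310 genes, 11918 had no count. Exonic lengths, overlaps and neighbours came from the annotation. Copies were sought with blastn 2.17.0 (95% identity, 75 bases or more). Promoter windows are RefSeq's.

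The genes named are the 10 complex genes, *Spen*, all partner genes, the called genes of 3 other H3K4 lists and the nearest expressed coding neighbours of called complex genes. *Thy1*, *Nes*, *Eomes*, *Zfp42*, *Dppa5a*, *Kdm5d*, *Gm11977* and *Prrt2* were named after their values were seen. The complex genes and lists were chosen with earlier results of these data known. The precision of all values is limited by 2 libraries a group and by the lower depth of WT.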

Additional observations from a re-analysis of the deposited data

How the results depend on the processing

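The count of 7 complex genes called higher was the same with TMM or upper-quartile size factors, a filter of at least 10 counts in at least 2 libraries, edgeR, and the removal of a GC and length trend, alone or with the replicate number as a block. It was 6 with chromosome medians removed, 5 to 6 when each replicate was left out in turn (DESeq2, with a lone library assumed to vary like the other group), and 0 with the thresholds of the study. The count of lower genes was 0 in each of these. The median log2 fold change of the complex genes, 0.38, was 0.28 with chromosome medians removed and 0.35 to 0.46 without single replicates. *Men1* changed sign with chromosome medians removed (-0.065). When per-kb levels used the longest transcript, 6 of the 10 genes kept their rank in WT, and with the *Setd1a* length outside *Hsd3b7*, an alternative chosen after seeing the data, 7 did. Over 12 alternatives for each of the 10 genes, 112 of 120 values kept their side of the threshold. The others, 3 for *Wdr5* and 5 for *Men1*, lost the call. The sign changed once for *Men1* (above) and in 5 values of genes that were not called. These were *Mll2* (0.034 with upper-quartile size factors, 0.10 without KO-labelled replicate 2 and 0.13 without WT replicate 1), *Ash2l* (-0.020) and *Dpy30* (0.083), both with chromosome medians removed. *Spen* kept its call in 12 of 12. For the partner genes and the called genes of the 3 other H3K4 lists, 64 of 324 values lost a call and 5 gained one. The neighbouring genes and the other genes named were not run under the alternatives.

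Same-numbered replicates did not deviate together (r = -0.0174 over 13306 genes), so the numbers were not taken to pair the samples. With the replicate block 6 complex genes were called higher, at a median of 0.38, and *Men1* was at 0.33 (DESeq2 adjusted p = 0.0540).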
